A study of Mus musculus with 3 samples.

Results

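Genes that macrophages use in tissue repair were followed in mouse lung leukocytes before and after transplantation. The set held 10 of the 32285 genes in the files, namely Arg1, Saa3, Fn1, Spp1, Chil3, Retnla, Mrc1, Trem2, Gpnmb and Ccl24, and all 10 were found by symbol. They were chosen by role and selected on earlier results of these data, among them high levels of Fn1, Saa3 and Arg1 at 3 days, so their levels are given as a description and support no claim about the set. UMIs (unique molecular identifiers, each standing for 1 captured RNA molecule) were summed over monocytes and macrophages. Such a cell had at least 0.3% of its UMIs on Lyz2, the lysozyme gene of myeloid cells, and under 2% on S100a8 and S100a9, the calprotectin genes that fill neutrophils. By this gate 2539 of 21029 cells that passed the filters were taken, out of 22265 in all.

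The study was about B cells in lung injury by ischemia and reperfusion, and its single-cell RNA-Seq served to describe B cell states in warm-ischemic grafts, so the genes below were not its subject. There were 3 groups, with 1 library each and cells of 2 mice pooled per library, and the labels give C57BL/6J for all mice. The naive group was left lung of naive mice. The 2 hours and 3 days groups were left lung grafts from CD45.2 donors in CD45.1 recipients, kept for 60 minutes at 4 °C and 45 minutes at 28 °C and then reperfused for the named time. Cells were sorted for CD45.1, so the graft libraries were meant to hold cells of the recipient and not the macrophages that the donor lung brought along. The B6 CD45.1 mice listed in the methods are the congenic line B6.SJL-Ptprca Pepcb/BoyJ. The same sort is stated for naive lung, although naive mice hold no recipient cells.

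Macrophages in a healing tissue take up debris, clear lipid and build new matrix. Alternatively activated macrophages, the state driven by IL-4 and IL-13, are known in the mouse for Arg1, Chil3, Retnla, Mrc1 and Ccl24, whereas Spp1, Trem2, Gpnmb and Fn1 mark macrophages of injured and scarring lung. Resident alveolar macrophages of healthy mouse lung carry several of the same genes, above all Chil3 and Mrc1.

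Depth differed between the libraries. The gate held 231 naive cells with 3645047 UMIs, 295 cells at 2 hours with 520647 UMIs and 2013 cells at 3 days with 25246110 UMIs. Median UMIs per gated cell were 16097, 1661 and 12970. All 7 general monocyte and macrophage markers were found in each library. Together they reached 15043, 9227 and 16167 UMIs per 1000000 gene UMIs of those cells (CPM) in naive lung, at 2 hours and at 3 days. In lymphocytes they reached 80.4, 182 and 399 CPM. Lyz2, which defines the gate, made up 13508, 6665 and 13147 CPM of the gated sums. Lymphocytes were taken outside the gate, so this contrast was in large part set by the gate. Markers of other cells were found in the gate at 144 to 839 CPM for 9 neutrophil genes, 25.5 to 53.8 CPM for 6 T cell genes and 18.7 to 77.3 CPM for 6 B cell genes, with Ly6g at 0 in naive lung and Camp and Pax5 at 0 at 2 hours. The 5 epithelial genes summed to 338 to 1264 CPM, and 2 droplets held 98.1% to 99.7% of the gated Sftpc UMIs of each library. No barcode of a gated cell occurred in more than 1 library.

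With 1 library per group there was no replicate error and no test, and all intervals below are 95% intervals that cover counting error only. A member was called higher or lower when its CPM differed by at least 2-fold, reached 10 CPM in the higher library and had an interval of the ratio outside 1. Where a library had 0 UMIs, the fold is a lower bound against a floor of 3 counts per library.

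At 3 days 6 members were higher than in naive lung and 3 were lower, and Spp1 was not called. Retnla, counted as higher here and against 2 hours, rests on few cells. Over all 8445 genes tested, 5.03% were higher and 20.2% were lower, and the median log2 ratio was 2.22 for the 10 members against -0.13 for all genes. Against 2 hours, 8 members were higher and none was lower, beside 14.7% and 7.7% of 7857 genes. The median log2 ratio was 2.47 for the members and 0.26 for all genes. Between 2 hours and naive lung 1 of 7 members tested was higher and 5 were lower, beside 9.13% and 30.1% of 8506 genes. Members thus went both ways against naive lung. None of the 3 lower calls at 3 days held without the naive clusters that scored highest for alveolar macrophages.

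Arg1 encodes arginase-1, which turns arginine into ornithine for polyamine and proline synthesis. It had 0 UMIs in 231 naive cells, 2 UMIs in 1 cell at 2 hours, of the cluster with alveolar markers, and 17664 UMIs in 804 cells at 3 days, or 0, 3.84 (0.47 to 13.9) and 699.7 (689 to 710.1) CPM. Nearly all Arg1 UMIs of the gate thus came from the 3 days library. The level at 3 days was at least 850.1-fold higher than in naive lung and differed from 2 hours by a log2 ratio of 7.51 (5.66 to 10.55). A count of 0 in 231 cells (floor of 3 counts) allows a share of up to 1.30% of naive cells with a UMI.

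Saa3, an acute-phase serum amyloid A that macrophages make themselves, was at 0.27 (0.01 to 1.53), 184 (149 to 225) and 1923 (1906 to 1940.3) CPM in naive lung, at 2 hours and at 3 days. At 2 hours 92 of the 96 UMIs came from 1 cell, of the cluster with alveolar markers. The log2 ratio of 3 days to naive lung was 12.78 (10.30 to 18.08), with 1 UMI in naive lung. That of 3 days to 2 hours was 3.38 (3.09 to 3.69), and without the 5 cells of that cluster it was 7.92. Without those cells Saa3 at 2 hours was no longer called higher than in naive lung. The single naive UMI rested on the filters, since without any filter beyond 200 genes the log2 ratio to naive lung was 5.41 at 3 days and 2.05 at 2 hours, both called. At 3 days 1115 of 2013 gated cells had a Saa3 UMI, at 2 hours 3 of 295.

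Ccl24, an eotaxin that attracts eosinophils, was at 7.13 (4.66 to 10.4), 3.84 (0.47 to 13.9) and 163 (158 to 168) CPM. The naive level rested on 5 cells, 1 of which held 15 of 26 UMIs. Retnla, which encodes the secreted protein RELMα, had 0 UMIs in the gated naive and 2-hour cells and 468 UMIs in 32 cells at 3 days, or 18.5 (16.9 to 20.3) CPM. Of these, 371 UMIs, or 79.3%, lay in 6 cells. Ccl24 at 3 days was 22.8-fold (15.6 to 35.0) higher than in naive lung, and Retnla was at least 22.5-fold higher than in naive lung and at least 3.22-fold higher than at 2 hours. Retnla was therefore a gene of few cells, unlike Arg1.

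Fn1, which encodes the matrix protein fibronectin, was already present in naive lung. It was at 748 (721 to 777), 703 (633 to 779) and 3858 (3833 to 3882) CPM in naive lung, at 2 hours and at 3 days. Naive lung and 2 hours overlapped within counting error, with a log2 ratio of -0.09 (-0.25 to 0.07). At 3 days Fn1 was 5.15-fold (4.96 to 5.36) higher than in naive lung, and 86.7% of gated cells had a UMI. Spp1, the secreted integrin ligand osteopontin, was at 343 (324 to 363), 113 (86.3 to 146) and 634 (624 to 644) CPM. It was lowest at 2 hours, where 39 of 59 UMIs came from the 5 cells of the cluster with alveolar markers. Without those cells the log2 ratio of 3 days to 2 hours was 4.00 for Spp1 instead of 2.48. At 3 days Spp1 was 1.85-fold (1.74 to 1.96) higher than in naive lung, short of the call.

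Chil3 encodes the chitinase-like protein Ym1. It was the most abundant member in naive lung, at 6375 (6294 to 6458) CPM, against 574 (511 to 643) CPM at 2 hours and 959 (947 to 971) CPM at 3 days. Both graft libraries lay far below naive lung, with log2 ratios of -3.47 (-3.64 to -3.31) at 2 hours and -2.73 (-2.76 to -2.71) at 3 days. Mrc1, the mannose receptor CD206, showed the same order at 601 (576 to 627), 49.9 (32.6 to 73.2) and 158 (153 to 163) CPM. At 2 hours 24 of its 26 UMIs came from the 5 cells of the cluster with alveolar markers. Without those cells the log2 ratio of 3 days to 2 hours was 5.31 for Mrc1 instead of 1.66. Gpnmb, a glycoprotein of lysosomes in lipid-laden macrophages, was at 44.7 (38.1 to 52.1), 7.68 (2.09 to 19.7) and 10.3 (9.05 to 11.6) CPM. Its graft levels overlapped each other.

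Trem2, a lipid-sensing receptor that signals through Tyrobp, was at 31.0 (25.6 to 37.3), 11.5 (4.23 to 25.1) and 131 (127 to 136) CPM in naive lung, at 2 hours and at 3 days. It was 4.23-fold (3.51 to 5.15) higher at 3 days than in naive lung and was found in 51.4% of gated cells at 3 days. Trem2 and Gpnmb, often named together for lipid-laden macrophages, went opposite ways between naive lung and 3 days over all gated cells. Both were higher at 3 days when naive clusters that scored as alveolar were left out, which left few naive Gpnmb UMIs.

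**Figure D1:**
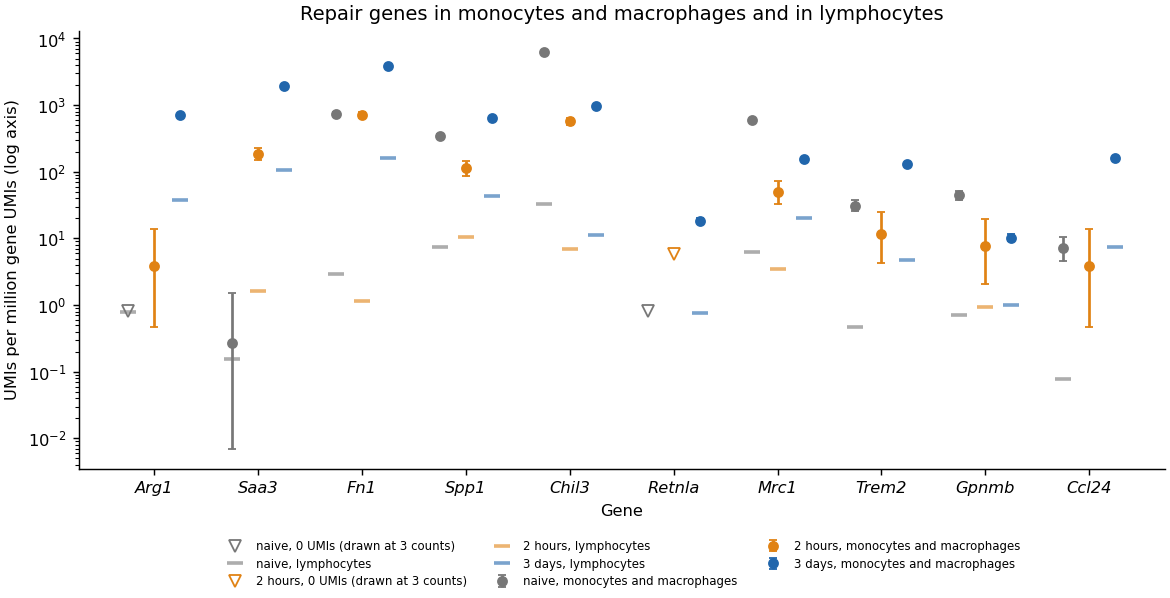
CPM on a log axis for the 10 genes, with circles for gated monocytes and macrophages, exact 95% Poisson intervals as bars, triangles at 3 counts for libraries with 0 UMIs, and short dashes for lymphocytes. Arg1 and Retnla are at 0 UMIs in naive cells, whereas Chil3, Mrc1 and Gpnmb are highest there.

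**Figure D2:**
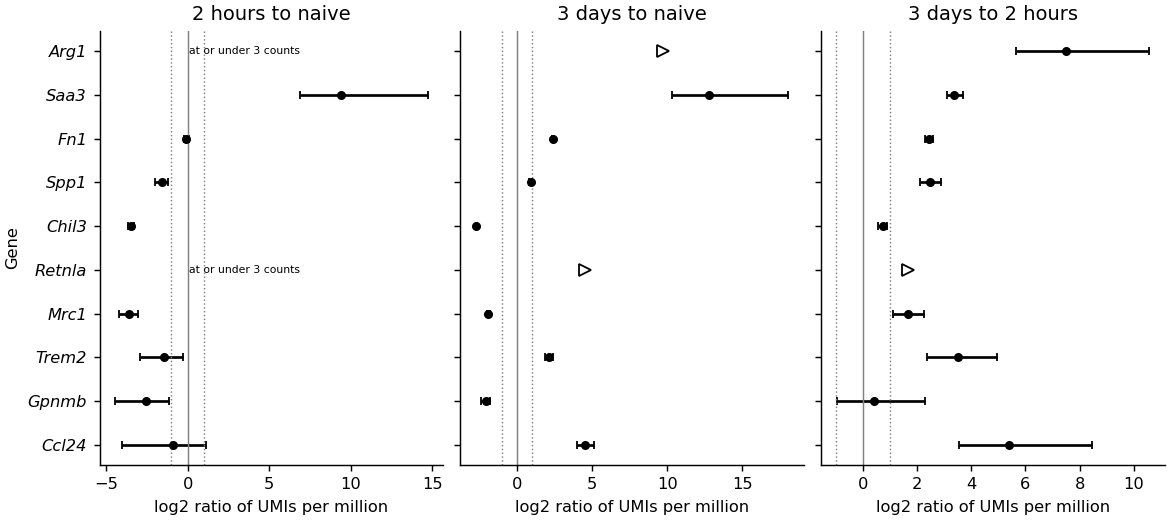
Log2 ratios of CPM between libraries with exact 95% intervals, where open triangles are lower bounds against 3 counts and dotted lines mark 2-fold. At 3 days 6 of the genes lie right of the dotted line against naive lung and 8 against 2 hours.

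The gated cells of the libraries were of different kinds. Cells were clustered within each library without the 10 members, and a cluster was named only where its marker list stood out. In naive lung 2 clusters of 41 and 43 cells were alveolar macrophage-like, at 2 hours 1 cluster of 5 cells was, and at 3 days none was at Leiden resolution 0.8. At resolution 1.2 a 3-day cluster of 87 cells was named so too. Of the 2-hour cells, 107 formed a cluster named as classical monocytes. The 2-hour clusters c0, c2 and c3, of 82, 48 and 53 cells, stayed unnamed. They scored highest for B cell, epithelial and neutrophil genes, with Csf1r at 377, 325 and 211 CPM. S100a8 was at 3308 CPM in that c3. The B cell score of c0 rested on 3 of 6 genes, with Cd79a at 7 UMIs in 3 cells. The same c0 held 12 of the 20 gated UMIs of Cd300e, a nonclassical monocyte marker. In c2, 614 of 616 Sftpc UMIs came from 1 droplet. The setting without clusters led by markers of other cells left out c0 and c3 but kept c2. It left 306397 of the 520647 gated 2-hour UMIs, and removing every unnamed cluster left 217064. Marco and Siglecf, markers of alveolar macrophages, were at 86.7 and 58.2 CPM in naive lung, 13.4 and 3.84 CPM at 2 hours and 19.6 and 1.54 CPM at 3 days. A change within cells and a change in which cells were sorted cannot be told apart for any of the 10 members.

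In naive lung Chil3, Mrc1, Gpnmb and Spp1 were highest in clusters that scored highest for alveolar macrophages. Fn1 was found in the 2 alveolar-like clusters too, at 794 and 636 CPM. Chil3 was at 10054 and 12410 CPM in the naive alveolar-like clusters against 302 CPM in nonclassical monocytes, the patrolling type. Mrc1 was at 1235 and 955 CPM in those clusters, Spp1 at 649 and 680 CPM, and Gpnmb at 88.4 and 77.9 CPM. With the named alveolar-like clusters left out of every library, a setting chosen once the data were known, the log2 ratio of 3 days to naive lung was -1.42 for Chil3, still called lower, and -0.45 for Mrc1 and -0.52 for Gpnmb, neither called. Naive cluster c4, of 15 cells, stayed unnamed, at 12174 CPM of Chil3, 1147 of Mrc1 and 91.0 of Gpnmb, and alveolar macrophages were the list for which it scored highest. Every cluster whose highest score was for that list and above 0 was then left out, named or not. This took c4 as well but no 3-day cluster. The 3-day clusters c8 and c11 had that list as their best at a median log2 of 0 and were kept. Of these, c8 had Gpnmb at 90.5 CPM and Spp1 at 2522 CPM. In this setting Chil3 had a log2 ratio of -0.06 and was not called. In the same setting Mrc1 was higher at 3 days than in naive lung by a log2 ratio of 1.31, Gpnmb by 2.17 and Spp1 by 6.80, all called. The naive side was then c0 and c1 alone, which scored highest for classical and nonclassical monocytes. These held 1 and 3 UMIs of Gpnmb and 6 and 4 of Spp1, so both ratios rest on few naive UMIs. The direction of Mrc1 and Gpnmb against naive lung therefore depended on which naive cells were counted.

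At 3 days the members fell into several groups of cells. Cluster c2, with 437 cells or 21.7% of the gate, held 70.2% of Arg1 UMIs, 74.4% of Saa3, 62.6% of Ccl24, 60.9% of Retnla and 55.5% of Fn1. Its levels were 2621 (2575 to 2667) CPM for Arg1, 7636 (7557 to 7715) for Saa3, 544 (523 to 565) for Ccl24 and 11436 (11339.8 to 11533) for Fn1. It also carried C1qa at 1005 CPM and Adgre1, the F4/80 antigen, at 351 CPM. Epithelial genes led its ranking, so the cluster was left unnamed, although 99.8% of its 8043 Sftpc UMIs lay in 2 droplets.

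Cluster c3, 133 cells with the markers of C1q macrophages, had the highest levels of Spp1, Mrc1 and Trem2. It held 50.9% of Spp1 UMIs at 3765 (3683 to 3847) CPM, 40.4% of Mrc1 at 744 (708 to 782) CPM and 26.5% of Trem2 at 406 (379 to 434) CPM. Saa3 was at 78.1 (66.8 to 90.8) CPM there and Arg1 at 376 (351 to 403) CPM. Cluster c8, of 37 cells, was led by the elastase gene Mmp12 and by Timp1 and Ctsk. It was highest for Arg1 at 2963 (2803 to 3130) CPM, for Ccl24 at 1958 (1828 to 2095) CPM and for Gpnmb at 90.5 (64.3 to 124) CPM of all 3-day clusters. Retnla had 0 UMIs in c8.

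Chil3 at 3 days lay elsewhere. Cluster c4, 485 cells in which all 7 classical monocyte markers stood out but hemoglobin genes led, held 70.1% of Chil3 UMIs at 2081 (2049.8 to 2113) CPM, with Arg1 at 9.07 (7.12 to 11.4) CPM. Nonclassical monocytes, cluster c5 with 350 cells, were low for most members, at 20.8 CPM of Arg1, 49.96 of Saa3, 90.5 of Fn1 and 140 of Chil3. Trem2 was spread over more clusters, at 104 CPM in c4, 107 in c1, 138 in c2 and 406 in c3, but was at 17.8 CPM in nonclassical monocytes.

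Smaller clusters also carried the members of c2. The 15 cells of c11, led by cell cycle genes such as Top2a, had the highest Saa3 at 8578 (8194 to 8976) CPM, with Arg1 at 1829 CPM. The 157 cells of c0, with a median of 917 UMIs, held 22.4% of Retnla UMIs, most of them from 1 cell with 90 UMIs. Clusters c9 and c10, led by B and T cell genes, had 44.9% and 25% of their droplets called as doublets and held 3.53% and 2.24% of Arg1 UMIs. Cluster c7, led by neutrophil genes, had 16.7% doublets and held 3.49%. When droplets called as doublets were dropped, the 3 days to 2 hours log2 ratio was 7.48 for Arg1 and 3.33 for Saa3, and the co-detection ratio of both was 2.61.

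**Figure D3:**
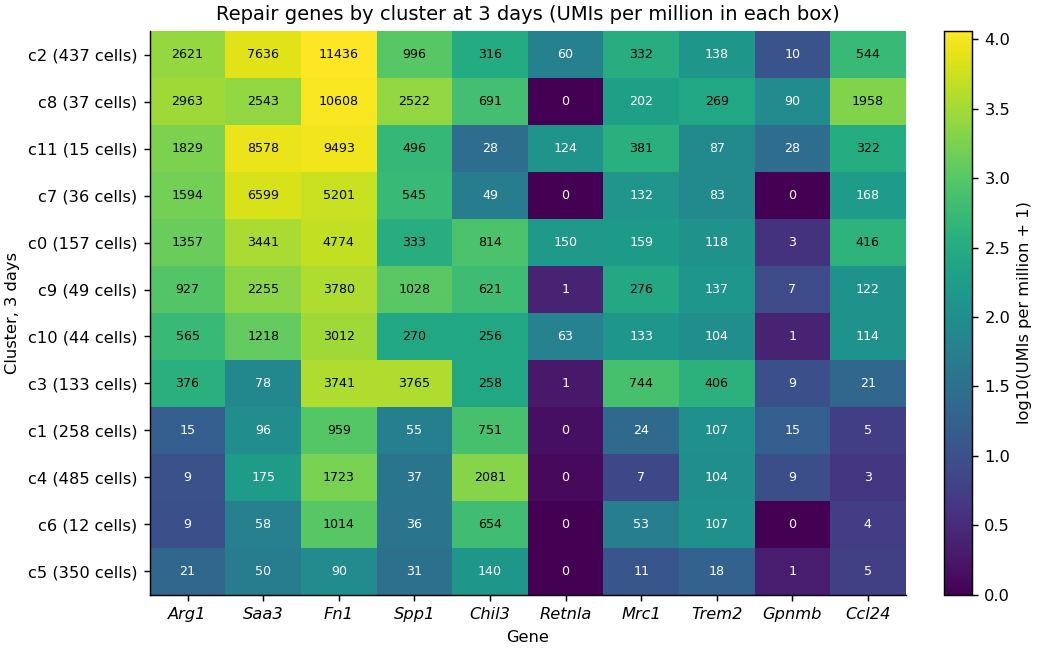
CPM of the 10 genes in each 3-day cluster, with colour on a log10 scale and the CPM written in each box. Arg1, Fn1 and Ccl24 are high in c2 and c8, Saa3 is highest in c11 and c2, Spp1, Mrc1 and Trem2 are highest in c3, and Chil3 is highest in c4.

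Shares of cells with a UMI were compared after each cell was thinned to 1000 UMIs, which left 228, 244 and 1923 cells and dropped 3, 51 and 90 shallower ones. At 3 days 25.4% (23.4 to 27.4) of cells then had Arg1, 25.7% (23.8 to 27.8) Saa3, 64.1% (61.9 to 66.3) Fn1 and 30.5% (28.5 to 32.6) Chil3. Unthinned shares were 39.9%, 55.4%, 86.7% and 55.4%. In lymphocytes of the same library the thinned shares were 2.23%, 5.86%, 8.31% and 1.15%, at median depths of 5703 UMIs in lymphocytes and 12970 in the gate. Thinned Fn1 shares were 33.8% (27.7 to 40.3) in naive lung and 31.1% (25.4 to 37.4) at 2 hours, and those of Chil3 were 63.6% (57.0 to 69.8) and 22.1% (17.1 to 27.9).

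UMIs were unevenly spread over cells. The 10% of 3-day cells with most UMIs of a gene held 91.8% of Spp1, 89.9% of Ccl24, 81.8% of Saa3, 69.8% of Arg1, 49.4% of Trem2 and 44.2% of Fn1. A single cell reached 850 UMIs of Saa3 and 538 of Spp1.

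Pairs of members were often found in the same cells. Among thinned 3-day cells 332 of 1923 had both Arg1 and Saa3, or 17.3% (15.6 to 19.0), where the product of both shares gives 6.53%, a ratio of 2.64. The ratio was 3.17 for Arg1 with Ccl24, 2.41 for Arg1 with Spp1, 3.02 for Spp1 with Mrc1 and 1.502 for Arg1 with Fn1, and 96.3% of Arg1 cells also had Fn1. Chil3 went the other way with some members, at 0.56 with Arg1, 0.49 with Mrc1, 0.54 with Ccl24 and 0.65 with Spp1. It was nearer 1 with others, at 0.80 with Saa3, 1.07 with Fn1, 1.14 with Trem2 and 1.35 with Gpnmb. Of 31 pairs with at least 5 expected cells, 16 had a ratio of at least 1.5, 4 had a ratio of at most 0.67 and 11 lay between. Within c2 the ratio was 1.10 for Arg1 with Saa3 and 1.05 for Arg1 with Chil3, and 29 of 31 such pairs lay between those limits. There Fn1 was in 99.1% of cells, Arg1 in 75.7% and Saa3 in 68.6%. At such shares no pair with 1 of these genes could reach 1.5, so their ratios within c2 do not tell whether they go together. A thinned 3-day cell held a median of 2 members, and 18.6% held 4 or more, with 53.4% in c2, 62.2% in c8, 28.8% in c3, 0.62% in c4 and 0.29% in c5.

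**Figure D4:**
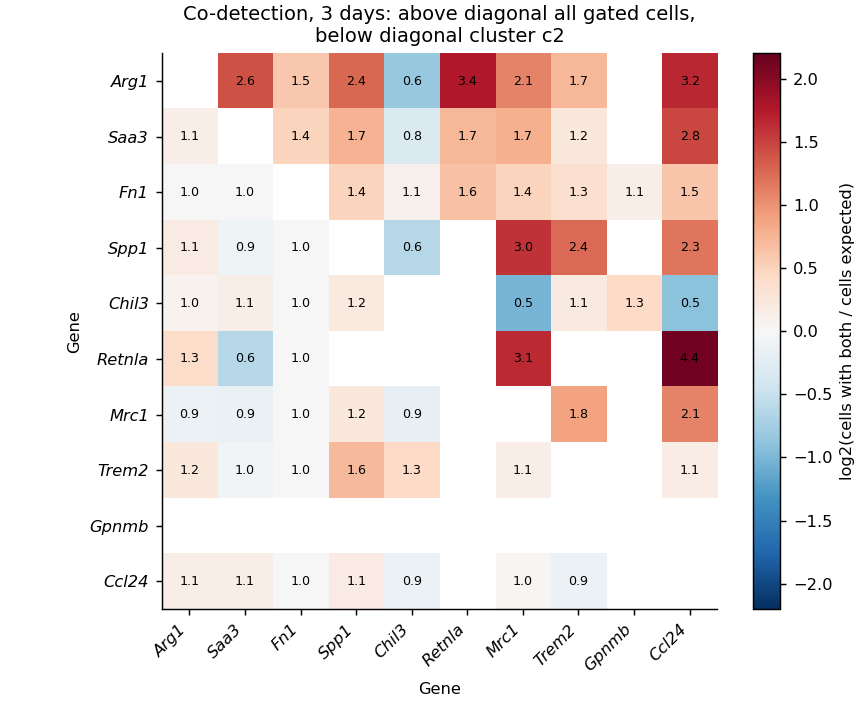
Cells with both genes divided by the cells expected from the product of their shares, in thinned 3-day cells, as log2 colour with the ratio written in each box. Above the diagonal (all gated cells), Chil3 is under 1 with Arg1, Saa3, Spp1, Mrc1 and Ccl24 and above 1 with Fn1, Trem2 and Gpnmb. Below the diagonal, within c2, most boxes lie near 1, where pairs with Fn1, Arg1 or Saa3 could not reach 1.5.

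Likeness over the same 1923 cells was measured as Pearson's r of log counts among 3081 genes found in at least 5% of cells. Arg1 was most like Saa3 at 0.61 and Fn1 at 0.61 among the members. Outside them Ctsd (0.53), Cxcl2 (0.51), Ctsb (0.48), Ccl6 (0.47) and Itgam (0.45) came next, which encode lysosomal proteases, chemokines and an integrin chain. For Fn1 they were Cxcl2 (0.59), Ccl6 (0.54), Itgam (0.48), Ctsd (0.47) and Ccl9 (0.44). For Chil3 they were Plac8 (0.33), Lyz2 (0.31), Tmsb10 (0.30), Vim (0.30) and Vcan (0.28), and its r with Arg1 was -0.17. Retnla was found in too few cells to be ranked. These cells share 1 library and clusters of cells, and the values are a description.

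The level of the gate gene moved with the members. At 3 days Arg1 was at 954 (920.1 to 989.5) CPM in 353 cells with 0.3% to 0.5% Lyz2, 1319 (1293 to 1345) CPM in 737 cells with 0.5% to 1% and 332 (323 to 341) CPM in 923 cells with 1% or more. Saa3 followed at 3638 (3570.3 to 3706), 3420.1 (3378 to 3462) and 805 (790.5 to 820) CPM. Chil3 ran upward, at 263 (245 to 281), 403 (388 to 417) and 1386 (1367 to 1406) CPM. Just outside the gate, 184 cells with 0.1% to 0.3% Lyz2 and no UMI of the T and B cell genes had Arg1 at 514 (475 to 554) CPM and Fn1 at 2653 (2565 to 2744) CPM, so the gate left out cells with these genes. Median Lyz2 was 0.70% in c2 and 1.78% in c4.

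**Figure D5:**
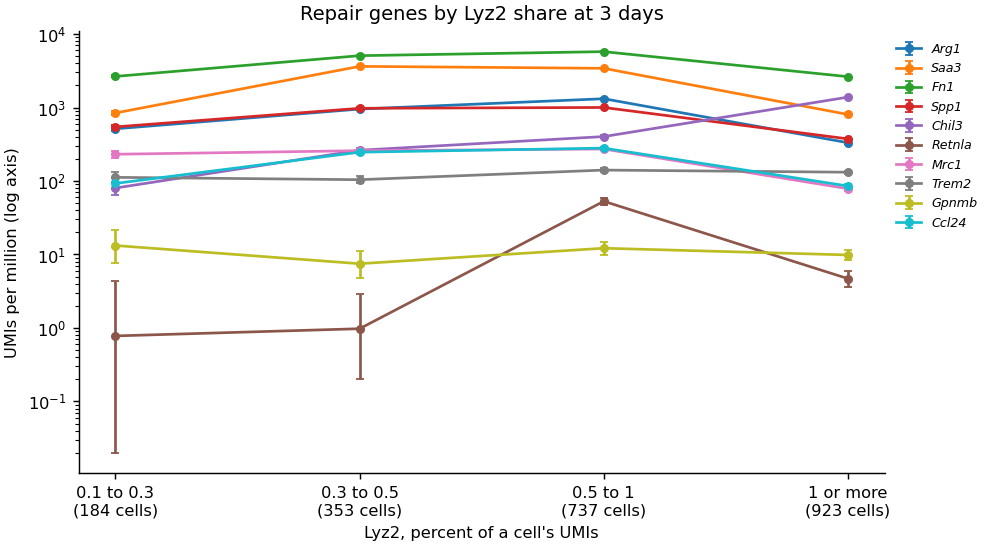
CPM of the 10 genes on a log axis in 3-day cells binned by the share of UMIs on Lyz2, with exact 95% Poisson intervals. Arg1, Saa3 and Ccl24 are lower in cells with 1% or more Lyz2 than in those with 0.3% to 1%, Chil3 is higher, and the leftmost bin lies outside the gate.

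Free RNA was read from lymphocytes, 3243 cells at 3 days with at least 2 UMIs of T or B cell genes. Their levels were 37.8 (35.3 to 40.5) CPM for Arg1, 107 (103 to 112) for Saa3, 162 (157 to 167) for Fn1, 43.6 (40.9 to 46.5) for Spp1, 20.4 (18.5 to 22.3) for Mrc1 and 11.5 (10.1 to 12.96) for Chil3. Relative to the gate these were 5.404% for Arg1, 5.59% for Saa3, 4.201% for Fn1, 12.9% for Mrc1 and 1.19% for Chil3. Relative to c2, Arg1, Saa3, Fn1, Ccl24 and Retnla stood in nearly 1 ratio, at 1.44%, 1.41%, 1.42%, 1.35% and 1.28%. Lymphocytes without a Lyz2 UMI were lower, at 13 CPM of Arg1, 50.8 of Saa3, 70.9 of Fn1, 26.7 of Spp1 and 11.1 of Mrc1. Levels below both were 9.07 CPM of Arg1 and 6.62 CPM of Mrc1 in c4, and these cannot be told apart from free RNA. Saa3 in nonclassical monocytes, at 49.96 CPM, lay next to the 50.8 CPM of lymphocytes without a Lyz2 UMI and could not be placed. Arg1 and Fn1 in nonclassical monocytes, at 20.8 and 90.5 CPM, Saa3 in c3, at 78.1 CPM, and Spp1 in c4, at 36.5 CPM, lay below all lymphocytes but above those without a Lyz2 UMI, so they could not be placed. In naive lung, lymphocytes had 32.5 CPM of Chil3, 0.51% of the gate.

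Near copies can split reads. For Chil3, 23.2% of 60-base windows of its longest transcript occur in other genes, mostly Chil4, and Chil4 had 0 gated UMIs in each library. Saa1 and Saa2 together had 1 gated UMI. Retnlg, the neutrophil relative of Retnla, shared no window and was at 8.50, 396 and 23.5 CPM in naive lung, at 2 hours and at 3 days. For Spp1, 8.43% of windows were shared, with the predicted gene Gm42793, and for Saa3 2.52%. Where the shared windows lie relative to the reads was not examined. The part of the Chil3 and Spp1 levels that this affects was therefore not tested.

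How intronic reads were counted is not stated in the labels or methods at hand, and the naive library was counted by another Cell Ranger version than the grafts. Genes with over 50 kb of introns had a median log2 ratio of 0.78 for naive lung to 3 days (1758 genes) and genes with no intron -0.23 (154 genes). Mrc1 has 96.3 kb of introns, Fn1 56.0 kb, Gpnmb 27.9 kb and Chil3 18.4 kb. The part of intronic reads in the naive levels was not tested. The graft libraries share the version, so their ratios do not carry this difference.

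Gene models in GRCm38 (mm10, GENCODE vM21) place Arg1 at chr10:24915221-24927484, Saa3 at chr7:46711998-46715700, Fn1 at chr1:71585520-71653200, Chil3 at chr3:106147554-106167564 and Ccl24 at chr5:135569937-135573049, all on the minus strand. On the plus strand lie Spp1 at chr5:104435118-104441050, Retnla at chr16:48842551-48844461, Mrc1 at chr2:14229392-14332057, Trem2 at chr17:48346401-48354147 and Gpnmb at chr6:49036546-49070929. RefSeq promoter windows were at hand for 7 of the 10 members. The 250 bases before the RefSeq start (GRCm38.p6) are shown for 4 of them, chosen for the clusters in which they were highest at 3 days, namely Saa3 in c11 and c2, Chil3 in c4, and Trem2 and Spp1 in c3. The Saa3 window reaches into the start of its GENCODE model. Capitals mark matches on either strand to C/EBP (TTGCNNAA), AP-1 (TGANTCA), NF-kB (GGGNNTTCC, which takes in GGGANTTCC) and STAT (TTCNNNGAA).
Saa3 (chr7:46715677-46715926, minus strand): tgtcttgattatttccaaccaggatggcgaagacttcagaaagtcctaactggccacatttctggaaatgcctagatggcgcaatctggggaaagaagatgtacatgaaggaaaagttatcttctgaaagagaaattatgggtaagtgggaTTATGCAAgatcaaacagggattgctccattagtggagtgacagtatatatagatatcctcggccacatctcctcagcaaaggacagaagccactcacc
Chil3 (chr3:106167565-106167814, minus strand): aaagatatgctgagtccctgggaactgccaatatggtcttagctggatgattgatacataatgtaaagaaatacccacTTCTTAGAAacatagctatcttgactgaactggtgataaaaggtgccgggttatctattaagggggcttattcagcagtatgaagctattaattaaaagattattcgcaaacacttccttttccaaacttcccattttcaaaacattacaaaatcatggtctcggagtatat
Trem2 (chr17:48346151-48346400, plus strand): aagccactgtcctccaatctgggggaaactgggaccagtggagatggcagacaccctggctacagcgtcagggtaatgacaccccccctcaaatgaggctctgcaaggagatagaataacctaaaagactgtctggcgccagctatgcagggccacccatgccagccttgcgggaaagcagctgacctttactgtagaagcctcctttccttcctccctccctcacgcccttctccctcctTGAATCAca
Spp1 (chr5:104434861-104435110, plus strand): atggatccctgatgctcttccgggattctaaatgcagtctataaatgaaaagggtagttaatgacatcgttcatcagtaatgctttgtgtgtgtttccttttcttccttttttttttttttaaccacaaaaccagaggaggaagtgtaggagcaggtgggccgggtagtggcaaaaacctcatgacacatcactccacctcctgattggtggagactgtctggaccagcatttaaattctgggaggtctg
Saa3 held 1 C/EBP match, 99 bases before the start, Chil3 held 1 STAT match at 172 bases and Trem2 held 1 AP-1 match at 9 bases. Retnla, not shown, held a C/EBP match and Mrc1 an NF-kB match. The Spp1 window shown and that of Gpnmb held none of the 4, whereas a further Spp1 window held a C/EBP match. Of 32536 mouse windows of the same length, 9.57% held a C/EBP match, 6.73% AP-1, 5.00% NF-kB and 7.04% STAT, so these matches describe letters only.

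Genes around the members were counted from lists. Of 14 matrix, protease and growth factor genes tested, 7 were higher and 2 lower at 3 days than in naive lung, beside the 5.03% and 20.2% of all genes. Timp1, an inhibitor of metalloproteases, was at 45.7 CPM at 3 days and 0.55 CPM in naive lung, the membrane protease gene Mmp14 at 62.4 and 1.10 CPM, and Thbs1, thrombospondin-1, at 2662 and 523 CPM. Thbs1 was already at 2944 CPM at 2 hours. Ctsk, a collagen-cutting cathepsin, was lower, at 4.16 CPM against 189.6 CPM. Against 2 hours, 6 of 14 were higher and 1 was lower, beside 14.7% and 7.7% of all genes.

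Of 7 arginine and polyamine genes, 2 were higher and 1 was lower at 3 days than in naive lung, beside 5.03% and 20.2% of all genes, and 1 was higher and 1 lower than at 2 hours, beside 14.7% and 7.7%. Odc1, ornithine decarboxylase, which takes up the product of arginase, was at 62.8, 65.3 and 281 CPM in naive lung, at 2 hours and at 3 days. Slc7a2, an arginine transporter, was at 340.2, 24.97 and 23.8 CPM. Arg2, the mitochondrial arginase, was at 24.1, 67.2 and 78.9 CPM and so was higher in both grafts.

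Among 12 alternative activation genes 5 were higher and 1 was lower at 3 days than in naive lung, beside 5.03% and 20.2% of all genes. Against 2 hours 5 of 11 tested were higher and none was lower, beside 14.7% and 7.7%. Il10, an anti-inflammatory cytokine, was at 52.8 CPM at 3 days against 3.29 in naive lung. In the same order, the folate receptor gene Folr2 was at 19.8 against 6.04 and the scavenger receptor gene Stab1 at 49.6 against 16.2. Pparg, a regulator of alveolar macrophages, was at 17.2 CPM against 316 in naive lung. Of 13 lipid handling genes none was higher and 6 were lower than in naive lung, beside 5.03% and 20.2% of all genes, among them Cd9 at 262.5 against 2271 CPM, Lpl, lipoprotein lipase, at 234 against 1688 and Fabp4, a fatty acid carrier, at 30.8 against 109.7. Against 2 hours the lipid genes went the other way, with 5 higher and 1 lower beside 14.7% and 7.7% of all genes. Lpl was then at 234 against 49.9 CPM, and Ctsd, a lysosomal protease, was 3.38-fold higher. The part of alveolar cells in the levels of these lists was not tested. Tyrobp, the signalling partner of Trem2, was at 1717, 4350.4 and 2435 CPM in naive lung, at 2 hours and at 3 days and was not called at 3 days. Of 10 receptors and partners of the members none was higher and 2 were lower than in naive lung, a share of lower calls near the 20.2% of all genes, and against 2 hours 3 were higher and none was lower, beside 14.7% and 7.7%. The lower ones were Cd44, which binds osteopontin, at 1272 against 3029.6 CPM, and Tlr4, the receptor for bacterial lipopolysaccharide, at 37.9 against 84.8.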

How the data were processed

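Single cells of 3 libraries were analysed. The authors deposited unnormalized UMI counts per gene and cell, aligned to mm10 per the labels and written by Cell Ranger 7.1.0 (naive) and 6.0.0 (grafts) per the file headers. The labels list 5′ and 3′ kits, and the methods a 3′ kit. The filters stated in the methods were applied, namely more than 200 but fewer than 6000 genes, below 10% mitochondrial counts and below 25000 UMIs. Counts were summed over gated cells per library and divided by their total (CPM). Poisson and Clopper-Pearson intervals and intervals of ratios conditional on the total were exact at 95%. Cells of each library were clustered in scanpy 1.11.5 (2000 variable genes without the members, 30 components, Leiden resolution 0.8). Scrublet called 40, 403 and 277 doublets in naive lung, at 2 hours and at 3 days, removed only as an alternative. Counting steps were tested on simulated data. Genes named in the text were the members, their paralogs, marker genes, 2 to 4 called genes per list by size of fold, further genes that a sentence turns on, and the 5 most alike genes. Members and lists were chosen with earlier results of these data known. The limit of cluster names to 5 myeloid types and the level at which cells left out by filters are reported were set after the data were seen. So were 5 alternatives. In 4 of them clusters led by other cells, alveolar-like cells at 2 hours or everywhere, or every cluster scoring highest and above 0 for alveolar macrophages were removed. The last was co-detection within c2. Other alternatives changed the gate, filters, scaling, thinning, fold, doublets and clustering resolution. The 277 antibody features of the grafts were used for CD206 alone.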

Additional observations from a re-analysis of the deposited data

Results flagged for a closer look

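In the 185 gated naive cells that the filters left out, 175 of them for their number of UMIs, Saa3 reached 70.6 CPM (64.1 to 77.6) against 0.27 CPM in the 231 naive cells that were kept. Of its 433 UMIs, 336 came from 1 cell and 95 from another. In the 158 gated 3-day cells left out, Retnla reached 76.5 CPM (67.7 to 86.2) against 18.5 CPM in kept cells, with 266 of 273 UMIs in 1 cell. Gpnmb reached 57.8 CPM (50.1 to 66.2) in those cells against 10.3 CPM in kept cells, with 142 of 206 UMIs in 1 cell. These values drew attention because they lie in cells outside the comparisons as filtered. They enter only where the filters are dropped. The filters took 185 of 416 gated naive cells and 158 of 2171 at 3 days. Left-out naive cells were also higher than kept ones for Mrc1 (1014 against 601 CPM), Gpnmb (121 against 44.7), Spp1 (749 against 343) and Chil3 (9552 against 6375). Trem2 (27.6 against 31.0) and Ccl24 (3.75 against 7.13) were lower. Without filters beyond 200 genes the log2 ratio of Spp1 at 3 days to naive lung was 0.29 instead of 0.88.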

How the results depend on the processing

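No paired analysis was possible because each group had 1 library. Of 102 recounts of called members, 90 stayed within 1.5 times the count reported. The share of all genes called under each of these settings is not given here. A change in member calls below can therefore not be set against a change in calls over all genes. With Lyz2 at 1% or more, 5 members were higher at 3 days than at 2 hours, and at 2 hours 0 were higher and 2 lower than in naive lung. With unnamed clusters removed, only c3 and c5 stayed at 3 days, which takes out c2 and also c4 with most Chil3 UMIs. Then 4 were higher and 2 (Saa3 and Chil3) lower at 3 days than at 2 hours, and 2 were higher at 2 hours than in naive lung. The 2-hour Saa3 level in this setting rests on 1 cell with 92 UMIs. At 4-fold 3 were lower at 2 hours than in naive lung. Without the 5 alveolar-like cells at 2 hours, or without alveolar-like clusters in every library, 0 were higher at 2 hours than in naive lung, and in the latter 1 was lower at 3 days than in naive lung. Removing every cluster that scored highest and above 0 for alveolar macrophages took no 3-day cluster. Then 0 were lower at 3 days and 3 at 2 hours than in naive lung. Log2 ratios to naive lung turned to 1.31 for Mrc1 and 2.17 for Gpnmb at 3 days. At 2 hours they turned to 2.80 for Spp1 and 0.80 for Gpnmb. Both rest on few UMIs, for Gpnmb 1 each in 2-hour c1 and c3 against 1 and 3 in naive c0 and c1. The log2 ratio of 3 days to 2 hours turned to -0.063 for Mrc1 with Lyz2 at 1% or more and to -2.79 for Saa3 with unnamed clusters removed. Within c2 the co-detection ratio of Arg1 and Saa3 was 1.10, where the high shares of both kept it from reaching 1.5. The cause of these shifts was not tested beyond the cells each setting leaves out. Means over cells and levels with lymphocyte CPM subtracted were called without an interval. Of 408 recomputed member ratios 6 that were called turned their sign, 260 stayed within their counting interval and 142 left it. Counting ratios that were not called, 15 had the opposite sign, among them Fn1 at 2 hours to naive lung (up to 1.27) and, for 3 days to 2 hours with unnamed clusters removed, Gpnmb (-1.59) and Chil3 (-2.37). Arg1 stayed higher at 3 days than at 2 hours under 15 of 15 settings, with log2 ratios of 3.24 to 7.87. Leiden resolution moved the largest share of Arg1 UMIs in 1 cluster between 52.2% and 82.9%. Each group was 1 library of 2 pooled mice, so differences between mice were not measured. At 2 hours 520647 gated UMIs limit what can be seen of rare genes: 3 counts correspond to 5.76 CPM.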

Other observations

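Spp1 was also found outside the gate. Cells with at least 2% of UMIs on S100a8 and S100a9, the range of neutrophils, had 284 (262 to 308), 224 (208 to 241) and 176 (168 to 184) CPM of Spp1 in naive lung, at 2 hours and at 3 days, against 7.33, 10.4 and 43.6 CPM in lymphocytes. At 2 hours this exceeded the 113 CPM of gated cells. Fn1 was at 6.08, 2.58 and 242.7 CPM in the S100a8 and S100a9 cells of naive lung, 2 hours and 3 days. In lymphocytes Fn1 was at 2.96, 1.15 and 162 CPM and so was highest at 3 days too. The part of free RNA in these levels was not tested.

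Kept 3-day cells that were neither gated, S100a8 and S100a9 high nor lymphocytes (835 cells) had 231 (218 to 245) CPM of Arg1 and 1197 (1167 to 1228) CPM of Fn1. In naive lung 1 cell of this kind held all 14 Retnla UMIs. The antibody feature for CD206, the protein of Mrc1, had 0 of 31745 antibody UMIs in gated cells at 2 hours, with an exact 95% upper limit of 0.0116%. At 3 days it had 5 of 410658. The Rat.IgG1.k control had 69 and 1701. The controls Mouse.IgG1, Mouse.IgG2a and Mouse.IgG2b had 13, 28 and 16 at 2 hours and 260, 425 and 320 at 3 days. The feature thus lay below every control, and whether the protein was present cannot be read from it.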
